A study of Drosophila melanogaster with 4 samples.

Results

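Isolated peaks of the nuclear receptor Ultraspiracle (USP) were 571 of the 1540 peaks in the deposited list, and 571 of its 1397 peaks on the major chromosome arms (40.9%, exact 95% interval 38.3 to 43.5%). A peak counted as isolated when no other peak centre lay under 5 kb from its own centre on the same sequence. The centre was the midpoint of the peak, and the sequences were 2L, 2R, 3L, 3R, 4 and X. Peaks overlapping 4 left-out intervals on 2L (2 intervals), 3L and 3R, which hold 109 peaks, were not taken. The other 826 arm peaks are these 109 and 717 peaks with a neighbour under 5 kb away.

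The peaks come from chromatin immunoprecipitation and sequencing (ChIP-seq) in Drosophila melanogaster embryos collected over 0 to 12 h. The strain USP-GFP carried, in the genotype PBac{y[+]-attP-3B}VK00033, a transgene described as the USP genomic coding region, and a rabbit polyclonal antibody to green fluorescent protein (GFP ab290) recovered the fusion protein. All libraries share this strain, stage and transgene: 2 are ChIP libraries and 2 are Input libraries of chromatin DNA. The labels' embryo collection step names y; bw cn sp flies, while the sample labels name USP-GFP. The labels do not say whether untagged USP was still present, and the antibody reads only the tagged protein. Whole embryos of mixed ages were used, so a peak can come from few or many cell types.

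USP is the Drosophila counterpart of the vertebrate RXR receptors. Its best known partner is the ecdysone receptor EcR: the pair binds the steroid hormone 20-hydroxyecdysone through EcR and sits on response elements built from paired half-sites, often as an inverted repeat. Ecdysone pulses direct moulting and metamorphosis, and a pulse during embryogenesis accompanies the large movements of the embryo. USP also pairs with the orphan receptor Hr38. A binding region of such a receptor may be a single peak or lie in a run of peaks along a locus, and the peaks below are the former by position.

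Every value below is from 1 list of called peaks, with first and last base counted from 1 on FlyBase release 5. The labels and headers do not say which libraries were used for calling, so no value has a replicate error and sequencing depth is unknown. The authors' peak score has no stated definition and is used only to compare peaks within the list. No gene is assigned to a peak, since the gene table used here is of Release 6, another build. The isolated peaks were chosen by the measured positions of the called peaks, and width and score come from the same peak calls, so the comparisons that follow are descriptions without a test. The 95% intervals cover counting error only and treat peaks as independent.

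Most isolated peaks lay far from any other. The distance to the nearest other centre had a median of 32.4 kb (interquartile range 13.2 to 84.5 kb). It was at least 10 kb for 463 of the 571 peaks (81.1%), at least 50 kb for 217 (38.0%) and at least 100 kb for 122 (21.4%). Only 7 stood at least 500 kb from the nearest centre. Among the other 826 arm peaks the median was 950 bp. The distances of the whole arm list fall into a mass near 1 kb and a broad shoulder of longer distances, with no break at the bound. Outside the left-out intervals, 138 peaks had their nearest centre at 2 to 5 kb, 108 at 5 to 10 kb and 117 at 10 to 20 kb.

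**Figure D1:**
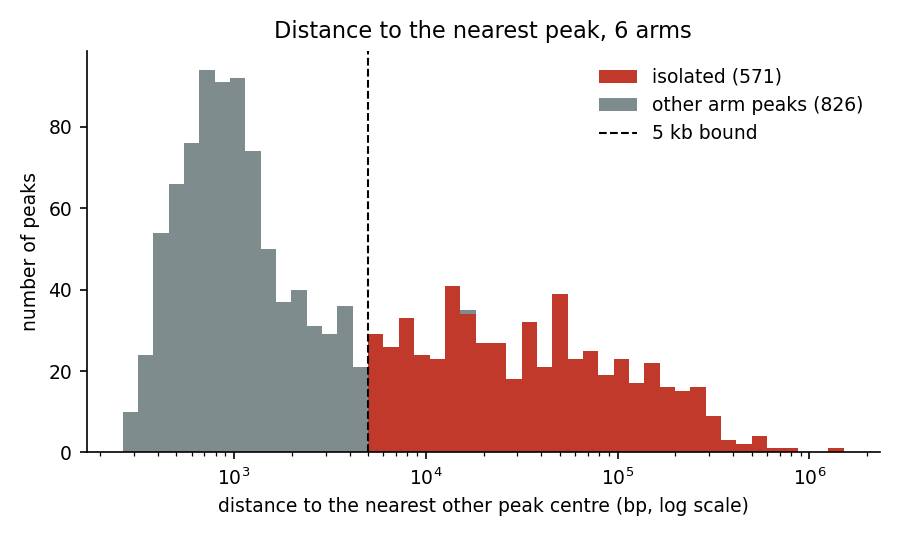
Number of arm peaks (vertical axis) by distance to the nearest other peak centre in bp (horizontal axis, log scale), with isolated peaks in red stacked under the other arm peaks in grey and the 5 kb bound dashed. The other peaks gather near their median of 950 bp, while the 571 isolated peaks spread around 32.4 kb. The single grey count to the right of the bound is the 32.2 kb peak of a left-out interval.

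The bound at 5 kb divided some similar peaks. Just inside it were a 3R peak at 10534737 to 10535627 (score 27.53, 891 bp), whose nearest centre was 5045 bp away, and a pair of 2R peaks 5075 bp from each other, at 2394752 to 2395051 with a score of 10.36 and at 2399831 to 2400121 with 10.03. Just outside were the 3L peaks at 10759278 to 10760751 (score 45.9, 1474 bp) and 10764628 to 10765280 (score 13.1), 4940 bp apart, and an X peak at 9472280 to 9473572 (score 26.6) with a neighbour at 4927 bp. A single peak met the distance rule inside a left-out interval. It is the 32.2 kb peak on 3L at 17955281 to 17987476, and its edges lay 231 and 160 bp from the next peaks.

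The label of isolated single peaks held at the edges for 551 of the 571. The other 20 (3.50%) had an edge-to-edge gap under 5 kb to the next peak, since the rule counts the distance between centres. Of these 20, 15 were under 1 kb wide. The median gap was 31.7 kb (interquartile range 12.3 to 84.2 kb), against 248 bp for the other arm peaks and 266 bp for those outside the left-out intervals. For 17 of the 20 the gap was still between 3506 and 4945 bp, as for the pair of narrow 2R peaks just inside the bound. For the remaining 3 it was under 500 bp, and these go against the label. The 2L peak at 6073384 to 6082840 ended 131 bp before a 605 bp peak of score 33.06 that opens a group of 7 peaks ending at 6092660. The X peak at 1834460 to 1847262 ended 53 bp before the peak at 1847316 to 1847523 (score 10.33, 208 bp). This pair counted as isolated because the wide peak's centre lay 6558 bp from the narrow one's, and the 2L peak because its centre lay 5162 bp from the next.

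Scores of isolated peaks spanned the whole range of the arms. They ran from 6.08 to 361.49 and so held both the lowest and the highest arm score. Their median was 13.01 (exact 95% interval 12.6 to 13.86, interquartile range 10.0 to 20.3). The median of the other arm peaks was 12.665 (12.23 to 13.1), or 12.6 (12.18 to 13.06) outside the left-out intervals. These intervals overlap. Scores of 20 or more made up 25.4% of isolated peaks (145, interval 21.9 to 29.2%) and 23.8% of the others (197, interval 21.0 to 26.9%). Scores under 10 made up 24.7% and 24.5%.

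The share of isolated peaks did not rise or fall steadily with score. It lay between 34.5% and 47.5% in every score decile, against 40.9% over all arm peaks. The lowest decile (scores 6.08 to 8.44) held 58 isolated peaks of 140 (41.4%), and the eighth decile (17.14 to 23.67) held 66 of 139 (47.5%, interval 39.0 to 56.1%). The highest decile (38.86 to 361.49) held 52 of 140 (37.1%, interval 29.1 to 45.7%). Among scores of 50 or more, 32 of 96 were isolated (33.3%, interval 24.0 to 43.7%), and among scores of 100 or more 9 of 31 (29.0%, interval 14.2 to 48.0%). These last intervals include the overall share. Of the 5 highest arm scores, 3 belonged to isolated peaks, and 2 of these 3 are the wide peaks with gaps under 500 bp.

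Isolated peaks of 1 kb or more were less frequent than wide peaks among the others, while the typical widths were close. The median width was 388 bp (interval 366 to 423 bp) for isolated peaks and 381 bp (361 to 405 bp) for the others. The upper quartiles were 637 and 736 bp, and the 90th percentiles 994 and 1321 bp. A width of 1 kb or more was found for 57 isolated peaks (9.98%, interval 7.65 to 12.7%) and for 140 others (16.9%, interval 14.5 to 19.7%), or 114 of 717 outside the left-out intervals (15.9%, interval 13.3 to 18.8%). Those intervals do not overlap, but widths and positions come from the same calls and the difference was not tested. A width of 5 kb or more was reached by 4 isolated peaks (0.701%) and 5 others (0.605%), so 4 of these 9 were isolated (44.4%, interval 13.7 to 78.8%). The rule counts centres, and a very wide peak keeps other centres away from its own. Such peaks include the isolated X and 2L peaks with gaps of 53 and 131 bp. Among the others, the 32.2 kb peak of a left-out interval also met the distance rule. The share at this width is therefore no exception to the difference above. At the narrow end, 20.5% of isolated peaks and 19.6% of the others were at most 250 bp wide. In all, isolated peaks covered 332 kb, which was 37.0% of the length under arm peaks.

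Widths of 1 kb or more were most frequent in groups of 5 or more peaks, and less so in smaller groups and among isolated peaks. Outside the left-out intervals, 492 peaks lay in groups of 2 to 4 linked by centres under 5 kb apart, and 225 in groups of 5 or more. Widths of 1 kb or more made up 14.0% of the former (interval 11.1 to 17.4%) and 20.0% of the latter (15.0 to 25.8%), beside the 9.98% of isolated peaks. Scores of 50 or more made up 5.60% of isolated peaks (interval 3.86 to 7.82%), 6.50% of peaks in small groups (4.49 to 9.06%) and 9.78% of those in large groups (6.23 to 14.4%). Widths of 5 kb or more were rare in each set, with 4 isolated peaks, 1 peak in small groups and 3 in large groups. The widest isolated peak had 12803 bp, and the widest in the 2 kinds of group 6944 and 6960 bp. A peak of 12803 bp leaves no room for another centre under 5 kb from its own. The rule thus kept it out of any group, and this order is no result. Median scores were 13.01, 12.585 and 12.86. The interval of the isolated share overlaps that of small groups for widths of 1 kb and for scores of 50, and that of large groups for scores alone. The intervals of small and large groups overlap each other for both measures, so the order of the group sizes is not settled.

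Wide isolated peaks had high scores. Over the 571 isolated peaks, score and width had a Spearman's rho of 0.74, beside 0.78 over the 826 others. All these peaks come from 1 deposited list and share its libraries, whichever these were. Within like widths, the median score of isolated peaks was above that of the others outside the left-out intervals in all 7 width classes. It was 17.815 against 15.835 from 500 to below 700 bp (80 and 92 peaks), 25.485 against 22.46 from 700 to below 1000 bp (62 and 67 peaks) and 40.2 against 35.175 from 1000 to below 2000 bp (46 and 86 peaks). The 95% intervals of both medians overlapped in each class. Read the other way, at like score, isolated peaks were narrower in 6 of 8 score classes and wider in the 2 lowest. The medians were as close as 299.5 and 302 bp (scores from 10 to below 12), and the intervals again overlapped in each class. The 32 isolated peaks of score 50 or more had a median width of 1576.5 bp (1222 to 2072 bp), against 1937.5 bp (1661 to 2286 bp) for 54 others.

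**Figure D2:**
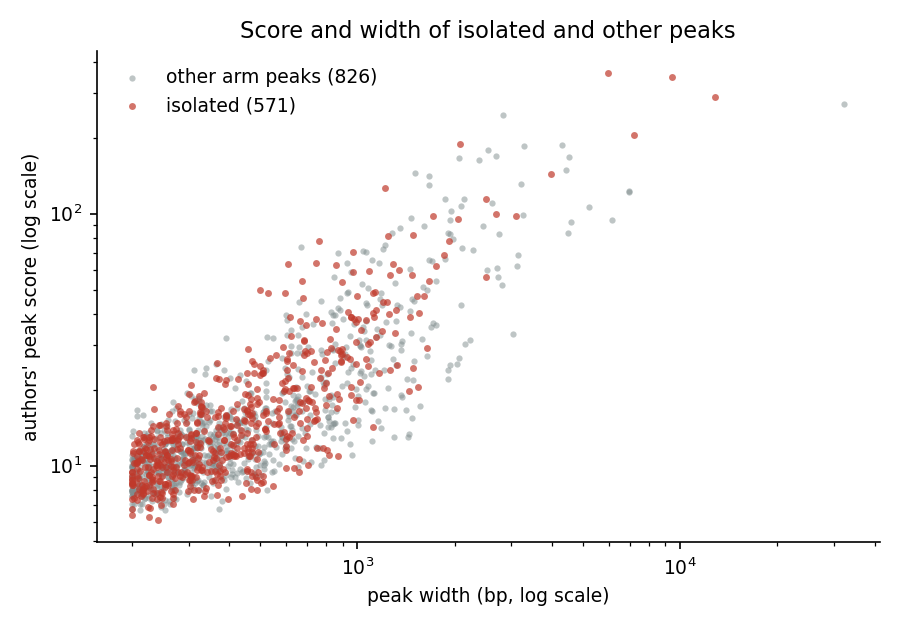
The authors' peak score (vertical axis, log scale) against peak width in bp (horizontal axis, log scale) for each arm peak, with isolated peaks in red and the others in grey. Both sets follow the same rising band from widths near 201 bp to several kb, and the widest isolated peak reaches 12.8 kb at a score of 290.54.

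**Figure D3:**
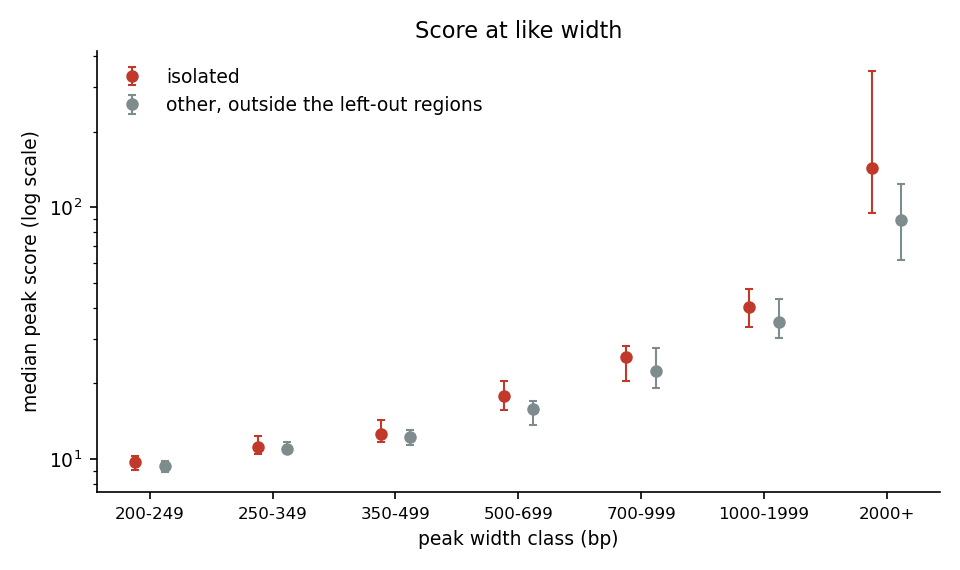
Median peak score (vertical axis, log scale) in 7 classes of peak width in bp (horizontal axis) for isolated peaks (red) and for other arm peaks outside the left-out intervals (grey), with exact 95% intervals of the median as bars. The red median is above the grey one in each class, and the bars overlap in each.

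The 20 isolated peaks with the highest scores lay on 3L (7 peaks), 2L (4), 3R (4), 2R (3) and X (2). Their scores were 63.37 or more and their median width was 1990.5 bp. The highest, which was also the highest of all arm peaks, scored 361.49 on 2L from 15908166 to 15914119, where it was 5.95 kb wide. It stood alone in a wide empty stretch: the nearest centres were 166 kb to the left and 345 kb to the right. The other isolated peaks of 5 kb or more were the X peak at 1834460 to 1847262 (score 290.54, 12.8 kb), the 2L peak at 6073384 to 6082840 (score 348.57, 9.46 kb) and a 2L peak at 2196496 to 2203670 (score 205.03, 7.18 kb, nearest centre 32.9 kb away). The first and the second of these 3 are those with a peak under 500 bp from their edge.

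High-scoring isolated peaks were found both near and far from other peaks. On 3L, the peak at 18613098 to 18615169 (score 188.28, 2.07 kb) was 193 kb from the nearest centre, and the peak at 15817007 to 15818930 (score 77.67, 1.92 kb) was 119 kb away. On 3R, the peak at 21070625 to 21071369 reached a score of 63.85 in 745 bp, with no centre within 214 kb. These 3 and the highest 2L peak were the 4 among the 20 whose nearest centre was at least 100 kb away, beside 122 of all 571 isolated peaks (21.4%). At the near end, a wide peak has a shorter edge gap at the same distance of centres. Of the 20, 5 had an edge gap under 5 kb, beside 20 of all 571 isolated peaks (3.50%). Besides the X and 2L peaks with gaps of 53 and 131 bp, these were on 2R at 15141506 to 15145482 (score 143.16, gap 4.31 kb), on 2L at 21237160 to 21238876 (score 97.95, gap 4.63 kb) and on 3L at 17486358 to 17489462 (score 97.67, gap 3.98 kb).

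The remaining 10 of the 20 were of middle distance. On X, the peak at 5798323 to 5799544 had a score of 126.04 in 1222 bp, the narrowest isolated peak above 100. On 3R, scores of 114.83 (2947610 to 2950106), 82.37 (25093018 to 25094506) and 63.37 (912695 to 913979) belonged to peaks that lay 14.6, 13.2 and 20.5 kb from the nearest centre. On 3L, scores of 100.11 (8049267 to 8051959), 94.86 (3393270 to 3395326), 70.59 (7797779 to 7798747) and 68.81 (3058971 to 3060830) were found, with 14.9 to 53.3 kb to the nearest centre. On 2R the peak at 11622035 to 11623280 (score 81.88) was 33.2 kb from its neighbour. The 2R peak at 20971992 to 20972752 (score 78.19, 761 bp) was the last of its arm. Of the 20, 3 were narrower than 1 kb: this last 2R peak, the 3R peak of 745 bp and the 3L peak of 969 bp.

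Among isolated peaks, neither score nor the share of wide peaks rose or fell steadily over 6 classes of distance to the next peak. Spearman's rho of the distance with score was -0.03 and with width -0.07 over the 571 peaks. The median score was 13.25 (interval 11.58 to 15.62) for the 108 peaks with a centre at 5 to 10 kb, 12.74 (11.53 to 15.33) for the 129 at 20 to 50 kb and 13.01 (12.47 to 16.87) for the 51 at 200 kb or more. Scores of 20 or more made up between 21.1% and 27.9% in each of 6 distance classes. Widths of 1 kb or more were found for 31 of the 225 peaks at 5 to 20 kb (13.8%, interval 9.56 to 19.0%), 11 of the 129 at 20 to 50 kb (8.53%, 4.33 to 14.7%) and 15 of the 217 at 50 kb or more (6.91%, 3.92 to 11.1%). The first and the last of these intervals overlap, and the distance is the measure the rule used. In the 6 classes from near to far, widths of 1 kb or more numbered 13 of 108, 18 of 117, 11 of 129, 5 of 95, 7 of 71 and 3 of 51. The fall over the 3 broader classes was thus not steady in the finer ones. The 51 most distant had scores up to 63.85, and the 71 at 100 to 200 kb included the highest score of 361.49.

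The most remote isolated peaks had low to middle scores and lay mostly at the ends of arms. The farthest was the last 3L peak, at 24529570 to 24529948 (score 16.98, 379 bp), 1.36 Mb from the nearest centre. It was followed by the last 2L peak at 22918156 to 22918767 (score 13.01, 781 kb), the first 2R peak at 983152 to 983359 (score 7.69, 686 kb) and the first chromosome 4 peak at 79703 to 79947 (score 10.06, 574 kb). The fifth, on 2L at 17378889 to 17379210 (score 9.84, 322 bp), had 561 and 770 kb free on its sides. In all, 9 isolated peaks were the first or last of an arm and so have a neighbour on one side alone. The lowest scores belonged to peaks of 201 to 241 bp: on chromosome 4 at 653722 to 653962 (6.08), on 3L at 19162291 to 19162517 (6.25), on 3R at 26172341 to 26172541 (6.39) and 3788839 to 3789039 (6.7), and on 2L at 18621387 to 18621614 (6.81).

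Isolated peaks were spread at a like density over the 5 large arms, and the arms differed in their other peaks. Isolated peaks numbered 4.53 per Mb on 3R (125 peaks), 4.61 on X (96), 4.93 on 2L (113), 5.20 on 2R (104) and 5.28 on 3L (129), each over the span from the first to the last peak of the arm. The other peaks numbered 3.89 per Mb on X and between 6.48 and 9.13 on the 4 large autosomal arms. Without the left-out intervals, 2L came to 5.33 and 3L to 7.86. Isolated peaks were therefore 54.2% of the peaks on X (96 of 177, exact 95% interval 46.6 to 61.7%) and 38.7% on the large autosomal arms (471 of 1216, 36.0 to 41.5%). With left-out intervals removed from the count, the autosomal share was 42.5% (39.6 to 45.5%), and by arm it was 48.1% on 2L (41.5 to 54.7%), 42.5% on 3R (36.8 to 48.4%), 40.5% on 2R (34.4 to 46.7%) and 40.2% on 3L (34.8 to 45.8%). The intervals of 2L, 3R and 2R overlap that of X, the last by a narrow margin. Median scores of isolated peaks were between 12.59 (2R) and 13.93 (2L) on these 5 arms, and median widths between 366 bp (X) and 436 bp (3R). Copy number and read depth per arm are not known here, so these are densities of called peaks.

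**Figure D4:**
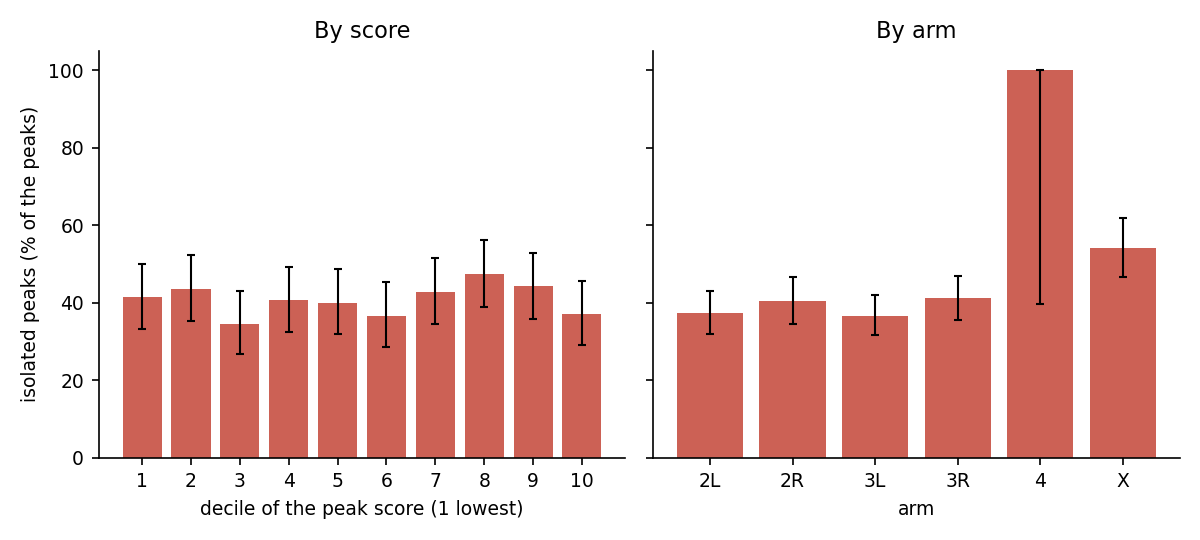
Share of arm peaks that were isolated in percent (vertical axis), by decile of the peak score (left) and by arm (right), with exact 95% binomial intervals as bars. The deciles lie between 34.5% and 47.5%, X stands at 54.2% beside 36.6% to 41.1% on the large autosomal arms, and chromosome 4 has 4 peaks in all. The bars of 2L, 3L and 3R count the left-out peaks among the others, and X has no left-out interval. Without those peaks the large autosomal arms stand at 40.2% to 48.1%.

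Counts in windows of 1 Mb show how the isolated peaks were spread along the arms. Windows began at the first peak of each arm, and the incomplete last one was left out. On 2L, 2R and 3R this first peak was itself isolated, so the first window there could not be empty. The first 2R window held no isolated peak besides it. The 112 windows of the 5 large arms held 4.98 ± 2.45 isolated peaks (SD over windows), from 1 to 12, and none was empty. The same windows held 7.20 ± 8.67 other peaks, from 0 to 67, and 18 had none. Outside the left-out intervals the others were at 6.22 ± 5.41, from 0 to 22. The rule split the peaks by their spacing, so the wider spread of the others is fixed by it and is no result. On X the 20 windows held 4.75 ± 2.34 isolated and 3.95 ± 4.62 other peaks, and the 92 autosomal windows 5.03 ± 2.48 and 7.90 ± 9.19.

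**Figure D5:**
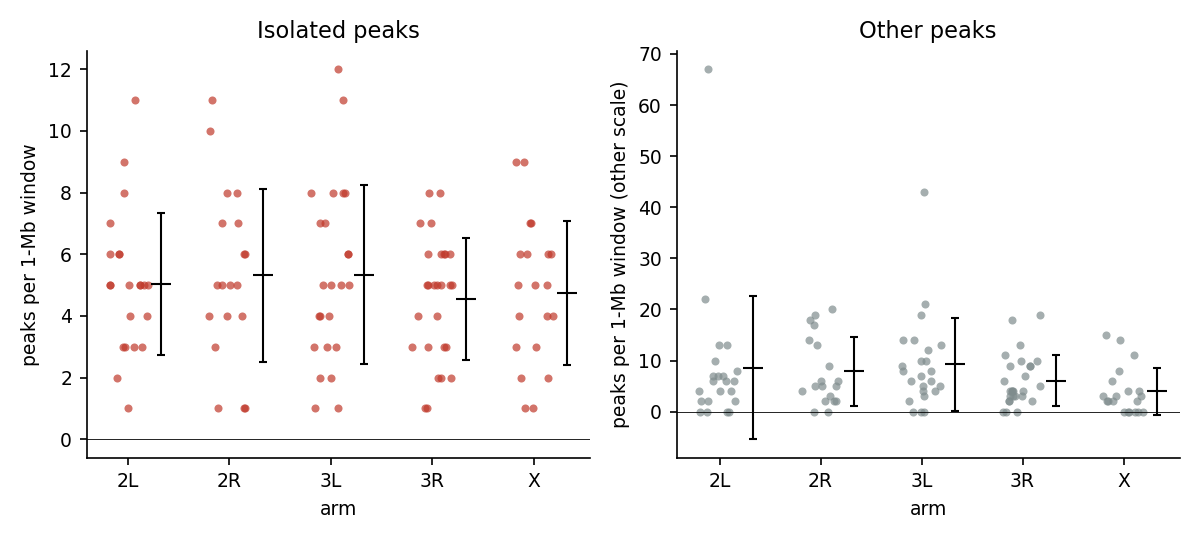
Peaks per 1-Mb window (vertical axes, of different scale) by arm (horizontal axes) for isolated peaks (left, red) and for the other arm peaks (right, grey), with a point per window and the mean ± SD beside the points. Isolated peaks stay between 1 and 12 per window on each arm, while the others run from 0 to 67.

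Chromosome 4, the small and largely heterochromatic dot chromosome, had isolated peaks and no others. From the first to the last, its 4 peaks scored 10.06 (79703 to 79947), 6.08 (653722 to 653962), 14.54 (1175719 to 1175961) and 12.37 (1284522 to 1284838). They were 241 to 317 bp wide, all narrower than the median isolated peak, and the last pair was 109 kb apart. With 4 peaks, a share of 100% has an exact 95% interval from 39.8 to 100%.

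The neighbours of isolated peaks were of both kinds. Since the rule fixes which peaks are isolated from the same positions, these counts describe the order along the arms and were not set against a chance level. For 397 of the 571 (69.5%), the nearest peak was itself isolated, and for 276 (48.3%) both neighbours were. Only 56 (9.81%) had grouped or left-out peaks on both sides. They formed 177 runs with no other peak between, of which 59 held a single isolated peak and 36 held 5 or more. Those 36 runs carried 291 of the 571. The longest, on X from 4804298 to 6898641, held 15 isolated peaks over 2.09 Mb, with scores of 8.03 to 126.04 and a median of 12.19. It includes the X peak of score 126.04 named above.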

How the data were processed

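The data were 1 list of peaks for the whole series, from 2 ChIP and 2 Input libraries of USP-GFP embryos. Per the file headers and columns, MACS called the peaks on FlyBase release 5. The tools listed in the submitters' processing notes are MACS2, BWA and CASAVA (versions 1.7.0.2 and 1.7.0.3), with BDGP5 as the build and no settings. Per the labels' protocols, cross-linking of embryos took 15 min in 1.8% formaldehyde. The deposited list gives where each peak starts and ends and a score per peak, whose definition no label or header states. Sequencing depth is unknown. The threshold of the calls sets which weak peaks are listed, and a missed weak neighbour makes a peak look isolated.

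From the list, Python 3.11.15 with pandas 2.3.3 and scipy 1.17.1 computed centres, widths, distances of centres, edge-to-edge gaps, medians and quartiles. Intervals of shares are exact (Clopper-Pearson) at 95%, and those of medians are exact from ranks. The rule was tested on simulated data with planted neighbours. The planted distances lay clear of the 5 kb bound, and no planted peak reached 1 kb. That check therefore covers neither cases near the bound nor wide peaks, and it did not use the left-out intervals. No significance test was run, because the rule and the values share the same calls. Groups were linked by centres under 5 kb apart. Peaks named are the 20 highest and 5 lowest scores, the 5 widest, the 5 most remote, those next to the bound and all of chromosome 4. Those with edge gaps under 500 bp and the longest run were named after their values were seen. The peaks and comparisons were chosen with earlier results of these data known. Gene starts and sequence motifs were not used, for want of a genome of release 5. The alternatives were other distances, edge-to-edge gaps, merging within 500 bp, higher scores, the left-out intervals kept in and all sequences, and 2 more were added after the data were seen: a gap of at least 500 bp besides, and the first and last peak of each arm left out.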

Additional observations from a re-analysis of the deposited data

Results flagged for a closer look

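The same rule applied to sequences outside the arms gave 102 isolated peaks of 124 on the unplaced sequences U and Uextra (82.3%), which the comparisons above do not use. Their scores ran from 6.08 to 361.18, with a median of 12.77, and their median width was 350 bp. These sequences join unplaced fragments, so distances along them need not be distances on a chromosome.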

How the results depend on the processing

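Of 70 values under 10 alternatives, 53 stayed within the interval of the reported value (counts within 1.5 times) and 17 moved. The number of isolated peaks, 571 as reported, was 346 with 20 kb to the nearest centre. Their share of the peaks, 40.9% as reported, was 50.8%, 33.1% and 24.8% at 2, 10 and 20 kb, 64.5% after merging within 500 bp, 58.5% among scores above the median and 43.9% over all sequences. The share 1 kb wide or wider, 9.98% as reported, was 7.51% at 20 kb. Merging gave a median width of 465 bp, a median score of 13.87, 20.5% of 1 kb or more and 29.7% of score 20 or more, and scores above the median gave 627 bp, 20.265, 21.8% and 50.5%. Merging joins peaks and the score bound drops the low scores, and both also change which peaks count as isolated. Their parts in the higher values were not separated. Over all sequences Spearman's rho of score and width was 0.70. The share of peaks of 1 kb or more was lower among isolated than other peaks under all 10 alternatives, while the median width was lower under 4 of the 10. The median score was higher among isolated than other peaks under all 10. All alternatives draw on the same list and share many peaks, so they are not independent of each other. No paired analysis was possible because each peak has 1 set of values and none for a single library. Leaving out a library was likewise not possible, and alternatives that need gene starts were not run. Unknown depth limits every count of isolated peaks.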

Other observations

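On the Het scaffolds, 3 of 7 peaks were isolated, each the single peak of its scaffold, with scores of 10.6 to 16.07. On the mitochondrial genome, 0 of 12 were, and whether its short length plays a part was not tested.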
